A study of Mus musculus with 12 samples.

Results

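The respiratory chain is built from subunits of 2 genomes, and its genes were followed here in mouse regulatory T (Treg) cells with and without CNS4, a distal enhancer of Foxp3. Members were the rows of the count table whose symbols start with mt-, Nduf, Sdha, Sdhb, Sdhc, Sdhd, Uqcr, Cox4i, Cox5, Cox6, Cox7, Cox8 or Atp5, without pseudogenes ending in -ps. A mean of at least 1 CPM (counts scaled to 1000000 gene counts) over the 12 libraries was also required. Of 55453 genes in the table, as many as 138 had such a symbol and 79 of these reached the mean. The members were 11 mitochondrially encoded genes and 68 nuclear genes, and all 79 passed the filter on low counts and were tested. Just inside the threshold were Atp5mpl at 1.04, Ndufa2 at 1.09 and Cox8a at 1.10 CPM, and just outside it were Sdhaf2 at 0.928, Sdhd at 0.802, mt-Ty at 0.789 and Ndufa6 at 0.784 CPM.

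Total RNA was sequenced from CD4+Foxp3+ cells sorted from C57BL/6 mice, and the sample titles contain the letters Thy without spelling out an organ. The 4 groups of 3 libraries were male CNS4 knockout cells, male CNS4 floxed cells, which the labels also call wild type, female cells labelled as CNS4 knockout heterozygotes and female cells labelled as CNS4 floxed heterozygotes. They are called male KO, male FL, female KO and female FL below, and the libraries keep their label numbers, 1 to 3 except that the male FL libraries are 1, 2 and 4. Foxp3 lies on the X chromosome, and the labels do not say which allele the sorted female cells used. They do not say either whether each library came from its own animal, so the p-values reflect only how these samples spread. Foxp3 itself had 1462 to 2037 CPM in male KO and 2227 to 2675 CPM in male FL libraries, and 685 to 1824 CPM in female KO and 2582 to 2658 CPM in female FL libraries.

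The chain lies in the inner mitochondrial membrane. Complex I takes electrons from NADH and complex II from succinate, complex III passes them to cytochrome c, complex IV hands them to oxygen, and complex V (ATP synthase) uses the proton gradient so built to make ATP. Mitochondrial DNA encodes a few core subunits of complexes I, III, IV and V beside its own rRNAs and tRNAs, and most of these genes are read off as long shared precursors, so their RNA levels are not independent of each other. All other subunits, including all of complex II, are nuclear. Treg cells are known to lean on oxidative metabolism, and loss of complex III in mouse Treg cells is known to impair their suppressive function.

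Gene counts ran from 12423335 to 30244505 per library. Genes on the minus strand were counted poorly throughout: they held 2.84 to 4.27% of the counts of nuclear protein-coding genes. Among the nuclear members 27 lie on the plus strand and 41 on the minus strand, so a low value of a minus-strand member does not show a low transcript level. Genes taken as Treg or T cell markers were present on the plus strand. Il2ra had 1904 to 3163 CPM, Ctla4 704 to 1759 CPM and Cd3d 776 to 1218 CPM. Those on the minus strand had low values, with Ikzf2 at 3.27 to 8.45 CPM, Cd4 at 4.76 to 11.95 CPM and Cd3g at 8.70 to 39.5 CPM. Macrophage markers summed to 213, 1265 and 363 CPM in male KO 1 to 3, to 85.3, 141 and 1200 CPM in male FL 1, 2 and 4, to 697, 878 and 1473 CPM in female KO 1 to 3 and to 1047, 238 and 530 CPM in female FL 1 to 3. Double-positive thymocyte markers summed to 462, 330 and 752 CPM in female KO and to 426, 311 and 320 CPM in female FL libraries. The B cell marker Cd79a, on the plus strand, had 14.97 to 58.9 CPM and the thymic epithelial marker Epcam 1.33 to 45.0 CPM, while Krt5, on the minus strand, was at 0 CPM in all 12 libraries. The part of such cells in the results was not tested. Female KO libraries 1 and 3 stood apart from the other 10 libraries in many genes of the whole table, which touches the results below. Values without both are given for the medians of the members, the mitochondrial messages, their ratio to the nuclear members, the calls, Uqcrc1, Uqcrc2, Nrf1, Gabpa and Idh3a.

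Besides tRNAs, the mitochondrially encoded members were mt-Co1, mt-Cytb, 5 complex I subunits and both rRNAs. mt-Co1 is the catalytic subunit of complex IV and mt-Cytb the only mitochondrially encoded subunit of complex III. mt-Nd3 was counted far less than the others of these. Per kilobase of annotated exon the mean level over the 12 libraries was 4795 CPM for mt-Co1, 4808 for mt-Rnr2, the large rRNA, 3694 for mt-Cytb and 1610 for mt-Nd1. It was 660 for mt-Nd5, 510 for mt-Nd4, 369 for mt-Nd2 and 33.9 for mt-Nd3. The leading nuclear members on the same scale were Atp5a1 at 688 and Atp5b at 486 CPM per kilobase, the alpha and beta subunits of the ATP synthase head. Exon length joined the exons of all annotated transcripts of a gene, 3135 bases for Atp5a1 and 4237 for Atp5b. This can lower the values of nuclear genes beside the mitochondrial ones. The tRNA members mt-Tt and mt-Tw, each 67 bases long, had 23 to 53 and 19 to 56 counts per library.

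The rest of the mitochondrial messages were close to 0, although they belong to the same precursors. mt-Co2, which carries a copper centre of complex IV, had 0 to 3 counts per library, mt-Co3 0 to 4, mt-Atp6 0 to 3, mt-Nd4l 0 to 2 and mt-Atp8 0 to 1. A count this low allows no comparison between the groups. For most of these genes the nuclear genome holds a near-identical annotated copy on chromosome 1. At 99% identity or more, such copies covered 99.6% of mt-Co2 (Gm28661), 99.9% of mt-Co3 (Gm28437), 99.6% of mt-Atp6 (Gm10925) and 99% of mt-Nd4l (Gm10222). Copies covered 99.1% of mt-Nd3 (Gm28438), 63.6% of mt-Nd4 (Gm28439) and 31.3% of mt-Co1 (Gm29216). No annotated copy at this identity was found for mt-Cytb, mt-Nd1, mt-Nd2, mt-Nd5 or mt-Atp8. The copies themselves had 0 to 14 counts. mt-Nd6, the only mitochondrial message on the minus strand, had 2 to 8 counts.

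The first 60 bases of 2 of these messages are shown beside the same stretch of their copies, since a read from a stretch with the same letters has more than 1 possible position. Capitals mark the base that differs. Over 681 compared bases mt-Co2 and Gm28661 were identical, and over 345 compared bases mt-Nd3 and Gm28438 differed at 1. Sequences are those of GENCODE M21, and Gm28661 and Gm28438 lie on the minus strand of chromosome 1.
mt-Co2: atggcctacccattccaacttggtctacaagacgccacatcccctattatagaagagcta
Gm28661: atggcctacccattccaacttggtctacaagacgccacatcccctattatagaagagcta
mt-Nd3: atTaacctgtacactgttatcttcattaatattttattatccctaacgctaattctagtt
Gm28438: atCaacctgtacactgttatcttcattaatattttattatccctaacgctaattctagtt

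mt-Nd3 had 137 to 240 counts per library, and mt-Nd2, for which no copy was found, had 3302 to 9630. Reads without a unique position made up 14.1 to 17.3% of each library, and whether reads of these messages are among them was not tested. The 7 mitochondrial messages used below therefore stand for a mitochondrial genome of which the complex V subunits and 2 of the 3 complex IV subunits were counted near 0.

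None of the 79 members passed the threshold for a difference between KO and FL cells in males, in females or over both sexes. Over both sexes 3.31% of all tested genes passed an adjusted p of 0.05 by edgeR's quasi-likelihood test. This share was 0.0242% in males and 0.201% in females, and for the female minus the male contrast it was 0%. At an unadjusted p under 0.05 over both sexes 8 members were higher and 2 lower in KO, 12.7% of the members beside 20.2% of all tested genes (11.8% higher and 8.44% lower). In males 1 member was higher and none lower (1.27%, beside 8.12% of all tested genes, 5.27% higher and 2.85% lower), and in females 7 were higher and 6 lower (16.5%, beside 19.2%, 9.83% higher and 9.33% lower). With DESeq2 3 members were higher over both sexes, namely Ndufaf7, Ndufa12 and Cox7b, where 9.17% of all genes tested by DESeq2 passed. In females, where 6.76% of all genes passed by DESeq2, it called Ndufaf7 alone, and in males, where 2.33% passed, no member. With limma-voom and quality weights, where 37.3% of all genes passed over both sexes, 27 members did, and none in males, where 1.43% of all genes passed.

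Although no member passed, the mitochondrially encoded members lay mostly on the KO side. Their median log2 fold change of KO over FL was 0.26 over both sexes, against 0.09 for the nuclear members and -0.02 for all tested genes. In males these medians were 0.16, 0.11 and 0.01, and in females 0.40, 0.08 and -0.02. Without female KO 1 and 3 the mitochondrial median was 0.17 in females and 0.15 over both sexes, and 9 of the 11 lay above 0 in females. The male median moved with single libraries, at 0.45 without male KO 3, 0.26 without male FL 2, 0.07 without male KO 2, 0.06 without male FL 4 and 0.00 without male KO 1. The median of the female minus the male contrast was 0.23 with all libraries, 0.01 without female KO 1 and 3 and -0.04 without male KO 3, where its sign turned. The log2 fold change was above 0 for 10 of 11 mitochondrially encoded members in males and 11 of 11 in females, and for 50 and 40 of the 68 nuclear members. The share of all tested genes above 0 was 51.7% in males and 48.7% in females. Over both sexes it was above 0 in 53 of the 79 members, beside 47.7% of all tested genes. In bulk samples fewer cells of a type and less RNA per cell cannot be told apart.

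**Figure D1:**
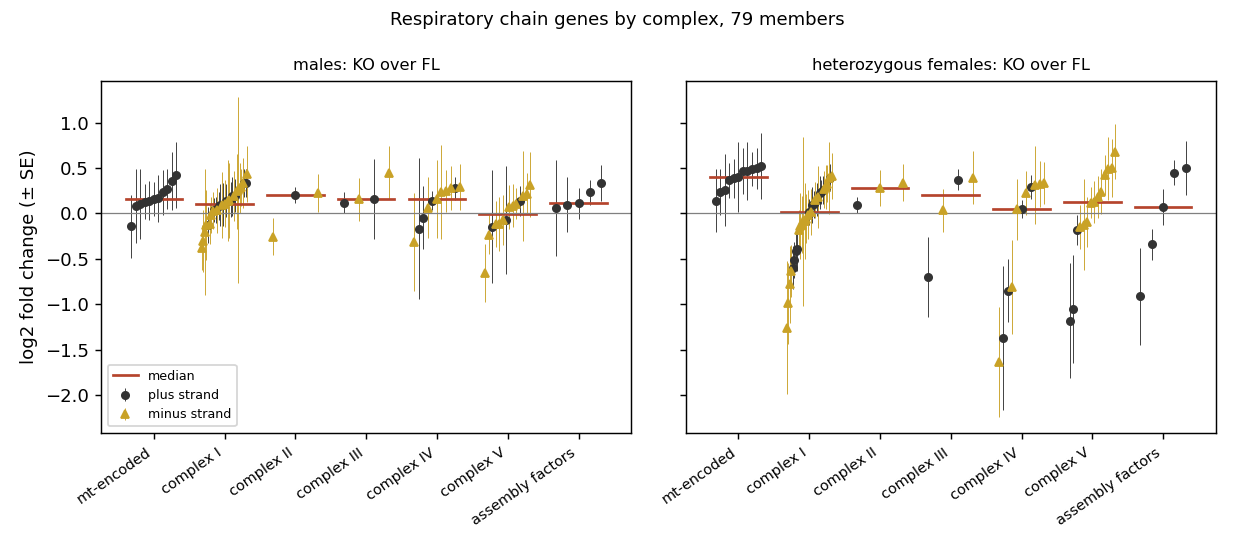
Log2 fold change of KO over FL with its standard error for the 79 members, by complex, in males (left) and heterozygous females (right), from the edgeR fit on 12 libraries. Circles are plus-strand and triangles minus-strand genes, and the red bar is the median of each class, 0.16 in males and 0.40 in females for the mitochondrially encoded members, none of which passed the threshold.

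mt-Co1 had 11328, 8458 and 10223 CPM in female KO 1 to 3 and 7439, 7095 and 6849 CPM in female FL 1 to 3. In males it had 7777, 7095 and 4942 CPM in KO 1 to 3 and 6357, 6763 and 4578 CPM in FL 1, 2 and 4. The female groups did not overlap, with female KO 1 and 3 highest of all libraries, while the male groups overlapped and male KO 3 lay among the lowest. Its log2 fold change was 0.49 (SE 0.19, edgeR adjusted p = 0.218) in females, 0.16 (SE 0.19, edgeR adjusted p = 0.998) in males and 0.33 (SE 0.13, edgeR adjusted p = 0.209) over both sexes. The difference between the sexes' contrasts was 0.33 (SE 0.27, edgeR adjusted p = 0.892). The female log2 fold change of mt-Co1 was 0.25 without female KO 1 and 3, and the male one was 0.35 without male KO 3.

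mt-Cytb had 6404, 4663 and 5306 CPM in female KO 1 to 3 and 4344, 4190 and 3982 CPM in female FL 1 to 3. In males it had 4449, 4501 and 2487 CPM in KO 1 to 3 and 3809, 3732 and 2844 CPM in FL 1, 2 and 4. The order of the libraries was that of mt-Co1 in outline, with no overlap in females and male KO 3 lowest of all 12. Its log2 fold change was 0.39 (SE 0.22, edgeR adjusted p = 0.327) in females and 0.14 (SE 0.21, edgeR adjusted p = 0.999) in males. For mt-Cytb the female value was 0.16 without female KO 1 and 3, and the male one was 0.39 without male KO 3.

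Of the complex I messages, mt-Nd1, mt-Nd2, mt-Nd4 and mt-Nd5 likewise showed no overlap in females and overlap in males. mt-Nd1 averaged 2060 ± 321 CPM in female KO and 1458 ± 99.2 CPM in female FL, and 1445 ± 487 CPM in male KO and 1199 ± 117 CPM in male FL (SD, n = 3 each). mt-Nd2, which had the largest increase of the members over both sexes, had 581, 446 and 505 CPM in female KO 1 to 3 and 409, 340 and 316 CPM in female FL 1 to 3. In males mt-Nd2 had 479, 516 and 151 CPM in KO 1 to 3 and 340, 256 and 258 CPM in FL 1, 2 and 4, so that 2 male KO libraries lay above every male FL library and the third below all of them. Over both sexes the log2 fold change of mt-Nd2 was 0.47 (SE 0.26, edgeR adjusted p = 0.319). The female log2 fold changes were 0.50 for mt-Nd1, 0.47 for mt-Nd5 and 0.37 for mt-Nd4, against male ones of 0.27, 0.23 and 0.13. Without female KO 1 and 3 the female ones were 0.28 for mt-Nd1, 0.23 for mt-Nd5 and 0.17 for mt-Nd4, and without male KO 3 the male ones were 0.53, 0.53 and 0.36. mt-Nd3, the least counted of the 7 messages, had a log2 fold change of 0.14 in females and -0.14 in males, with overlap in both sexes.

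Of the rRNAs, mt-Rnr2 had 12271, 9150 and 9605 CPM in female KO 1 to 3 and 8166, 7200 and 7049 CPM in female FL 1 to 3. In males mt-Rnr2 had 9569, 8491 and 3188 CPM in KO 1 to 3 and 6485, 5098 and 5010 CPM in FL 1, 2 and 4. mt-Rnr1, the small rRNA, had 1708, 1190 and 1147 CPM in female KO and 1154, 1148 and 1122 CPM in female FL, so here a single library stood out and the groups overlapped. Male KO 3, the most deeply sequenced library, had the lowest level of both. The ratio of mt-Rnr2 to mt-Co1 counts was 0.645 in male KO 3 and 0.754 in male FL 2 and lay between 0.940 and 1.23 in the other 10 libraries.

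**Figure D2:**
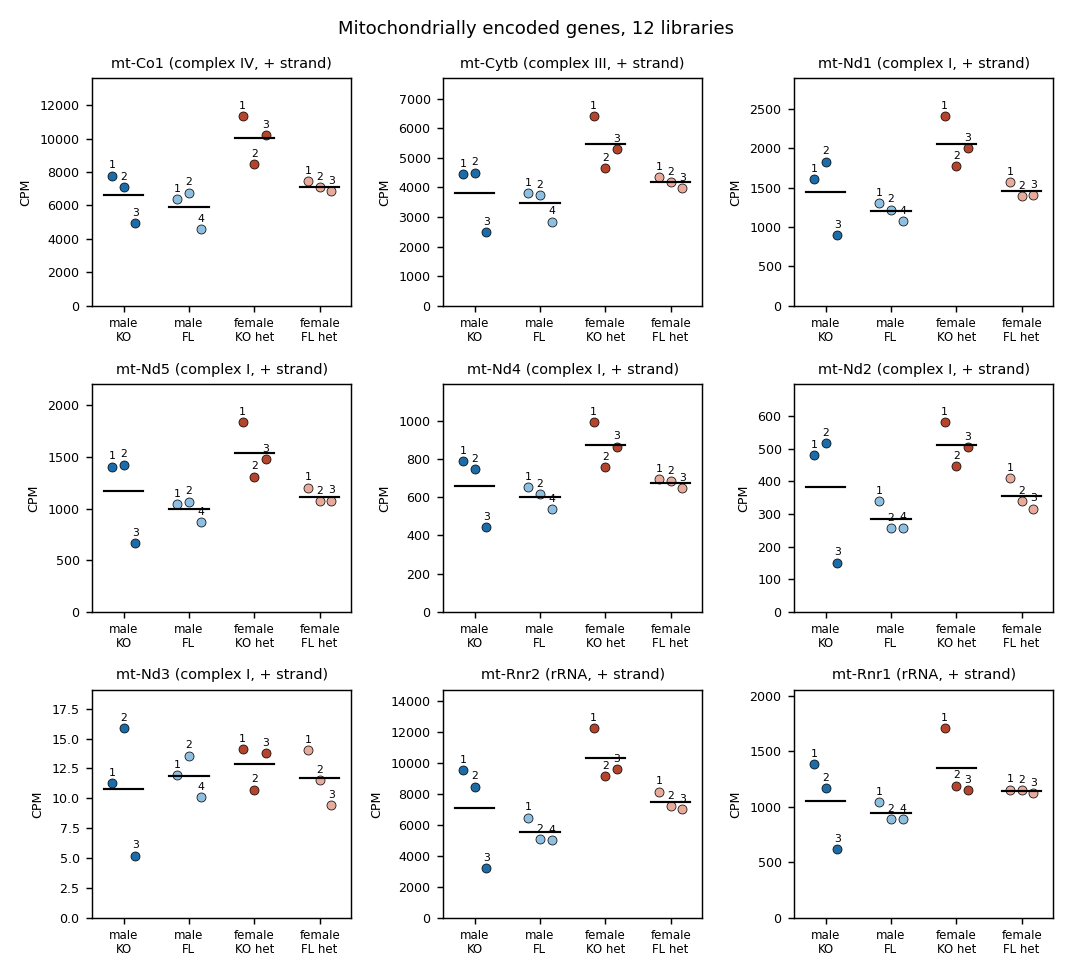
CPM of 9 mitochondrially encoded members in each of the 12 libraries, KO left of FL within each sex, with the library number beside each point and a bar at the group mean. Female KO libraries lie above all female FL libraries for mt-Co1, mt-Cytb, mt-Nd1, mt-Nd2, mt-Nd4, mt-Nd5 and mt-Rnr2, and male KO 3 is low in every panel.

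Counted over the members, all 3 KO libraries lay above all 3 FL libraries in females for 19 of 79 members (24.1%), beside 15.3% of all tested genes. For 7 of the 11 mitochondrially encoded members this was so, and for 12 of the 68 nuclear ones (17.6%). All 3 lay below for 4 members (5.06%), beside 9.7% of genes. In males 6 members lay above without overlap (7.59%), beside 8.2% of genes, and 0 lay below, beside 6.13%. No mitochondrially encoded member was among the 6.

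The balance between the genomes was also taken inside each library, as the summed counts of the 7 mitochondrial messages over those of the 68 nuclear members. This ratio was 4.35, 1.95 and 3.69 in female KO 1 to 3 and 2.24, 1.70 and 1.59 in female FL 1 to 3. In males it was 1.78, 1.73 and 0.981 in KO 1 to 3 and 1.57, 1.49 and 1.09 in FL 1, 2 and 4. Female KO 1 and 3 lay above every other library, female KO 2 lay inside the female FL range, and the male groups overlapped throughout.

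On the log2 scale the ratio was 0.79 higher in female KO than in female FL and 0.08 higher in male KO than in male FL, beside a pooled SD within groups of 0.44. Without female KO 1 and 3 the female difference was 0.10. Leaving out 1 male library turned the sign of the male difference, at -0.07 without KO 1, -0.05 without KO 2 and -0.08 without FL 4, while it was 0.36 without KO 3, 0.18 without FL 1 and 0.15 without FL 2. With a trend on GC content and length removed from each library it was 0.24 in females and -0.12 in males. No test was made of this ratio, since it is a score over the members.

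Both sides of the ratio moved in the female libraries. The 7 mitochondrial messages summed to 23562, 17416 and 20399 CPM in female KO 1 to 3 and to 15679, 14786 and 14286 CPM in female FL 1 to 3. The 68 nuclear members summed to 5420, 8925 and 5531 CPM in female KO 1 to 3 and to 7014, 8683 and 9008 CPM in female FL 1 to 3. In males the nuclear sum was 9260 to 9780 CPM in KO and 8631 to 9346 CPM in FL libraries. Without Atp5b, Atp5d, Cox5a and Uqcrc1, the nuclear sum was 4904, 5644 and 4794 CPM in female KO and 5123, 5168 and 5358 CPM in female FL, so these 4 genes held most of the gap in female KO 1 and 3.

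**Figure D3:**
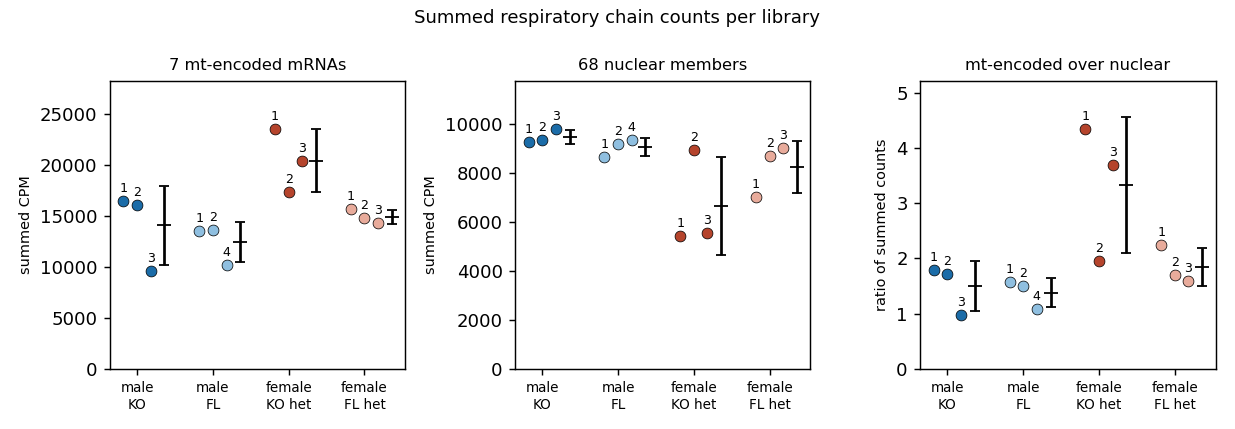
Summed CPM of the 7 mitochondrially encoded messages (left) and the 68 nuclear members (middle) and the ratio of their summed counts (right) in each library, with the mean and SD of each group of 3. Female KO 1 and 3 have the 2 highest ratios, 4.35 and 3.69, and the 2 lowest nuclear sums, 5420 and 5531 CPM, while female KO 2 lies with the female FL libraries.

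The mitochondrial values were also taken with a trend on GC content and length removed from each library. The mitochondrially encoded members have 33.0 to 40.3% GC, where the median was 47.8 or 51.8% for tested genes outside or among those lowest in female KO 1 and 3. The libraries differed in how far a gene's deviation followed its GC content. Spearman's rho over genes, which are not independent, was -0.392, -0.137 and -0.305 in female KO 1 to 3 and -0.118, 0.0178 and 0.151 in female FL 1 to 3. It was -0.0975, 0.0419 and 0.399 in male KO 1 to 3 and 0.153, 0.240 and 0.448 in male FL 1, 2 and 4. With the trend removed, the median log2 fold change of the mitochondrially encoded members was 0.00 in females, -0.15 in males and -0.07 over both sexes, and 2 of the 11 lay above 0 over both sexes. mt-Co1 was then at 0.06, mt-Cytb at -0.07, mt-Nd1 at -0.01 and mt-Nd4 at -0.15 over both sexes. The sign of the mitochondrial median thus turned over both sexes and in males with this setting. In females the median was near 0, with 5 of the 11 above 0. The part of base composition in this was not tested.

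In complexes III, IV and V the 2 most abundant nuclear members went apart in female KO 1 and 3. Low members there were not particular to these complexes. Female KO 1 and 3 were lowest for 22.6% of the nuclear members of complex I, 25% of complex III, 36.4% of complex IV and 21.4% of complex V. This compares with 25.3% of all tested genes. Atp5b had 312, 2202 and 459 CPM in female KO 1 to 3 and 1211, 2458 and 2495 CPM in female FL 1 to 3. In males Atp5b had 2328, 2397 and 2853 CPM in KO 1 to 3 and 2478, 2794 and 2699 CPM in FL 1, 2 and 4. Female KO 1 and 3 were the lowest libraries, female FL 1 came next, and female KO 2 lay with the rest. Atp5a1, whose product sits beside that of Atp5b in the same catalytic ring, had 1420, 2495 and 1806 CPM in female KO and 2196, 2082 and 2216 CPM in female FL libraries. Atp5a1 was thus also lowest in female KO 1 and 3, by less than Atp5b. The ratio of Atp5b to Atp5a1 counts was 0.219, 0.882 and 0.254 in female KO 1 to 3 and 0.551, 1.18 and 1.13 in female FL 1 to 3, and 0.959 to 1.24 in the 6 male libraries.

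In complex III the paired core proteins Uqcrc1 and Uqcrc2 parted in the same libraries. Uqcrc1 had 155, 692 and 209 CPM in female KO 1 to 3 and 467, 594 and 654 CPM in female FL 1 to 3, with 587 to 750 CPM in the male libraries. Uqcrc2 had 568, 422 and 501 CPM in female KO 1 to 3 and 369, 390 and 392 CPM in female FL 1 to 3. Uqcrc2 thus was higher in each female KO library than in any female FL library, while the groups overlapped for Uqcrc1. The log2 fold change of Uqcrc2 was 0.37 (SE 0.12, edgeR adjusted p = 0.165) in females, 0.12 (SE 0.12, edgeR adjusted p = 0.975) in males and 0.25 (SE 0.08, edgeR adjusted p = 0.137) over both sexes. That of Uqcrc1 was -0.70 (SE 0.44, edgeR adjusted p = 0.375) in females. Without female KO 1 and 3 the female values were 0.14 for Uqcrc2 and 0.28 for Uqcrc1, whose sign turned.

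In complex IV, Cox5a, a subunit on the matrix side, had 6.28, 72.8 and 9.52 CPM in female KO 1 to 3 and 35.9, 95.6 and 97.5 CPM in female FL 1 to 3. In males it had 88.9, 117 and 208 CPM in KO 1 to 3 and 159, 176 and 131 CPM in FL 1, 2 and 4. Cox4i1, the common form of subunit 4, had 506, 451 and 436 CPM in female KO and 437, 445 and 463 CPM in female FL libraries, a narrow range in which the groups overlapped. Cox5b fell in between, at 23.4, 69.0 and 27.1 CPM in female KO 1 to 3 and 56.4, 81.0 and 78.4 CPM in female FL 1 to 3.

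**Figure D4:**
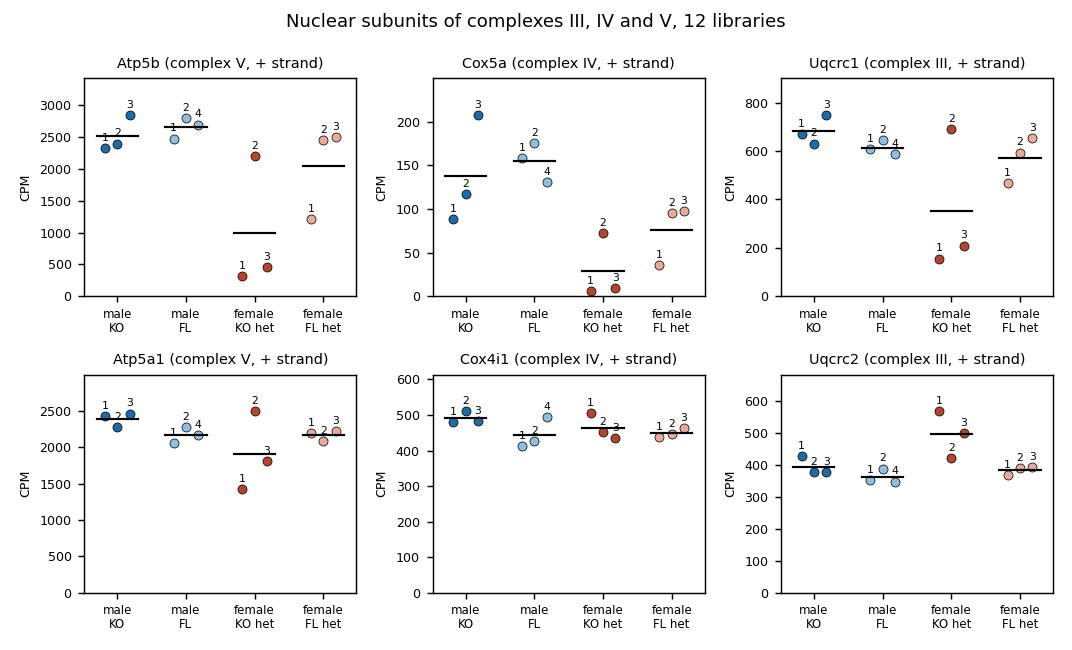
CPM of 3 pairs of plus-strand nuclear subunits of complexes V, IV and III in each of the 12 libraries, KO left of FL within each sex, with library numbers and a bar at the group mean. The upper genes, Atp5b, Cox5a and Uqcrc1, are lowest in female KO 1 and 3, with female FL 1 next, while of their partners Atp5a1 is also lowest there but by 1.40-fold against 6.19-fold for Atp5b, setting the mean of both libraries against that of female KO 2, FL 2 and FL 3, and Cox4i1 and Uqcrc2 are not lowest there.

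The mean of female KO 1 and 3 was set against the mean of female KO 2, female FL 2 and female FL 3. It was 11.2-fold lower for Cox5a, 9.86-fold for Ndufab1, the acyl carrier protein bound to complex I, and 7.11-fold for Atp5d, the delta subunit of the ATP synthase stalk. It was 6.19-fold lower for Atp5b, 4.90-fold for Ndufaf8, a complex I assembly factor, and 3.55-fold for Uqcrc1. Of these, Ndufab1 lies on the minus strand and was poorly counted, with means of 0.597 and 5.89 CPM and as few as 8 counts in a library. These libraries were chosen by how they look, so the folds are a description. For Sdhb, the iron-sulfur subunit of complex II, the means were 340 and 337 CPM.

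Female KO 1 and 3 were both below the other 10 libraries for 17 of the 79 members (21.5%), all of them nuclear, beside 25.3% of all tested genes. Both were under 0.5 times the lowest of the other 10 for 8 members (10.1%), beside 8.32% of genes. Over all members these shares were near those of the whole table, but they differed by strand. Of the 27 plus-strand nuclear members 12 were lowest there (44.4%), beside 26.3% of tested plus-strand genes. For 6 of them (22.2%) both were under 0.5 times, beside 8.13%. Of the 41 minus-strand nuclear members 5 were lowest there (12.2%), beside 22.2% of tested minus-strand genes. For 2 of them (4.88%) both were under 0.5 times, beside 9.12%. Female KO 1 and 3 both lay above the other 10 for 14 members (17.7%), beside 14.9% of genes, among them 6 of the 11 mitochondrially encoded members. The 17 members had a median GC content of 53.0%, against 48.6% for the other nuclear members with an annotation, and 12 of the 17 lie on the plus strand. After the trend on GC content and length was removed, the female log2 fold change was -1.01 for Atp5b, -1.58 for Cox5a and -0.59 for Uqcrc1, against -1.05, -1.37 and -0.70 before. These genes were thus about as low with that trend removed.

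The counts of called members depended on these libraries. Without female KO 2, so that female KO 1 and 3 alone stood for the female knockout, edgeR called 14 members over both sexes, where 22.6% of all genes were called. The 4 higher ones were Ndufaf7, Ndufa12, Cox7b and Uqcrc2, and the 10 lower ones were Atp5b, Atp5d, Cox5a, Cox5b, Ndufa10, Ndufab1, Ndufaf8, Ndufb2, Ndufs7 and Uqcrc1. All 10 were among the 17 members lowest in female KO 1 and 3. Both lists rest on the same libraries, so this overlap was largely fixed in advance and is a description. Without female KO 1 and 3, which leaves 1 female KO library that is assumed to vary like the rest, no member was called in any contrast.

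Complex I gave the largest class, 31 nuclear members. Their median log2 fold change was 0.02 in females and 0.11 in males. Ndufa12, a subunit at the hydrophilic arm, had 56.9, 61.8 and 54.5 CPM in male KO 1 to 3 and 42.6, 40.5 and 54.2 CPM in male FL 1, 2 and 4. In females Ndufa12 had 68.4, 56.6 and 56.4 CPM in KO 1 to 3 and 47.5, 43.9 and 46.6 CPM in FL 1 to 3. It was higher in KO without overlap in both sexes, though in males by a small margin over FL 4. Its log2 fold change was 0.37 (SE 0.11, edgeR adjusted p = 0.0905) over both sexes, 0.34 in males and 0.39 in females. With the GC trend removed it was 0.32 over both sexes.

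Ndufaf7, a methyltransferase needed for complex I assembly, had the smallest p of the members. It had 77.1, 88.4 and 81.5 CPM in male KO 1 to 3 and 66.0, 72.0 and 72.3 CPM in male FL 1, 2 and 4. In females Ndufaf7 had 116, 85.3 and 91.3 CPM in KO 1 to 3 and 70.8, 71.4 and 72.1 CPM in FL 1 to 3. Each KO library lay above each FL library of its sex. Its log2 fold change was 0.34 (SE 0.10, edgeR adjusted p = 0.0829) over both sexes, 0.23 in males and 0.45 in females. Over the 23 other settings it lay between 0.24 and 0.39, with adjusted p between 0.00700 and 0.333.

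The most abundant complex I members by CPM among the nuclear ones were Ndufs7, which binds an iron-sulfur cluster, and Ndufv3. Ndufs7 had 76.9, 170 and 99.6 CPM in female KO 1 to 3 and 180, 165 and 180 CPM in female FL 1 to 3, low in female KO 1 and 3 only. Ndufv3 had 181, 129 and 148 CPM in female KO and 130, 127 and 131 CPM in female FL libraries, so here female KO 1 and 3 were the high ones. Ndufc2 averaged 124 ± 4.93 CPM in female KO and 104 ± 5.84 CPM in female FL, and 118 ± 25.5 CPM in male KO and 93.8 ± 9.96 CPM in male FL (SD, n = 3 each). Over both sexes the log2 fold change of Ndufc2 was 0.30 (SE 0.11, edgeR adjusted p = 0.176). This was 0.13 with the GC trend removed.

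Complex II, with 3 nuclear members, had no member low in female KO 1 and 3. Sdhb had 387, 385 and 382 CPM in male KO 1 to 3 and 305, 330 and 366 CPM in male FL 1, 2 and 4, without overlap. In females Sdhb had 327, 359 and 354 CPM in KO 1 to 3 and 323, 322 and 329 CPM in FL 1 to 3, where female KO 1 lay inside the FL range. Its log2 fold change was 0.20 (SE 0.09, edgeR adjusted p = 0.615) in males and 0.09 (SE 0.09, edgeR adjusted p = 0.568) in females. Sdhc, a membrane anchor on the minus strand with 1.63 to 4.29 CPM, was higher in KO without overlap in both sexes. Sdha, the flavoprotein on the minus strand, averaged 16.4 ± 1.95 CPM in female KO and 13.5 ± 0.67 CPM in female FL, and 10.4 ± 2.44 CPM in male KO and 12.4 ± 0.98 CPM in male FL (SD, n = 3 each).

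Members without overlap in both sexes were 5 in all, Ndufa12, Ndufaf7, Cox7b, Ndufs4 and Sdhc, each higher in KO. They are 6.33% of the members, beside 3.97% of all tested genes, and no member was lower in this way, beside 1.78% of genes. Cox7b, a small complex IV subunit encoded on the X chromosome, had 61.5, 70.1 and 56.4 CPM in male KO 1 to 3 and 48.2, 51.5 and 55.6 CPM in male FL 1, 2 and 4. In females Cox7b had 64.6, 63.0 and 59.8 CPM in KO 1 to 3 and 47.3, 54.1 and 51.5 CPM in FL 1 to 3. Over both sexes the log2 fold change of Cox7b was 0.29 (SE 0.09, edgeR adjusted p = 0.123), against 0.05 with the GC trend removed.

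Several complex IV subunits and others have tissue forms. The widespread forms Cox4i1, Cox6a1, Cox6b1, Cox7a2, Cox8a and Ndufa4 were members, while the heart and muscle, testis or hypoxia forms fell below 1 CPM. Cox4i2 had 4 to 18 counts per library and Cox7a1 3 to 20, both on the plus strand, and Ndufa4l2, also on the plus strand, had 0 to 7. Cox6a2, Cox6b2 and Cox8b, on the minus strand, had 0 counts in all 12 libraries.

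KO and FL libraries overlapped in both sexes for these members, except for Cox8a in females. Cox8a, on the minus strand, had 0.423, 0.50 and 0.221 CPM in female KO and 0.608, 1.36 and 1.65 CPM in female FL libraries. In females the log2 fold change of Cox8a was -1.64 (SE 0.61, edgeR adjusted p = 0.208), at a level of a few counts per library. Atp5g1, which encodes the membrane ring of complex V and lies on the minus strand, was the 1 member with an unadjusted p under 0.05 for the difference between the sexes' contrasts (1.27%, beside 2.73% of genes). It had 2.41, 1.64 and 2.36 CPM in female KO and 1.69, 1.43 and 1.41 CPM in female FL libraries, and 1.2, 1.52 and 0.836 CPM in male KO and 1.86, 1.24 and 2.43 CPM in male FL libraries. The difference of the contrasts was 1.16 (SE 0.45, edgeR adjusted p = 0.892).

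Complex V gave 14 nuclear members, with a median log2 fold change of 0.12 in females and 0.00 in males. By class the female median was 0.28 for complex II, 0.20 for complex III, 0.05 for complex IV and 0.07 for the 5 assembly factors. The male medians of these classes were 0.20, 0.16, 0.16 and 0.11.

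A further library pattern followed the strand. Male KO 3 and male FL 2 were both below the other 10 libraries for 17 of the 41 minus-strand nuclear members (41.5%), beside 12.3% of all tested minus-strand genes. Over all 79 members the count was 21 (26.6%), beside 5.53% of all tested genes. These are also the libraries with the smallest share of minus-strand counts among nuclear coding genes, 2.84 and 3.06%, where the other 10 had 3.27 to 4.27%. The pair was picked from these same data, and a low minus-strand share is not independent of low minus-strand members. The counts are thus a description. Cox7a2 had 5.85 CPM in male KO 3 and 5.90 CPM in male FL 2, beside 10.1 to 12.3 CPM in the other male libraries. Cox6a1 was also low among the male libraries there, at 30.8 and 25.0 CPM beside 46.2 to 65.1 CPM. It was lower still in female KO 1 and 3, at 11.9 and 15.6 CPM, and so is not among the 17. Thus 1 library of each genotype was low. The cause was not tested.

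Nuclear respiratory genes are known targets of NRF1 and of the ETS factor GABP, so their promoters were searched for the letters GCGC, any base and TGCGC in a row, the core of the NRF1 site, and CCGGAAG, the ETS core, on both strands. RefSeq windows of 250 bases before to 50 bases after the start, on build GRCm38.p6, were found for 57 of the 68 nuclear members. The NRF1 letters stood in 15 of them (26.3%), beside 5.19% of 27025 genes, and the ETS letters in 15 (26.3%), beside 9.93%. At least 1 of them stood in 26 members (45.6%), beside 14% of all genes, while a match is a description and not a site. Of the members lowest in female KO 1 and 3, 15 had a window and 6 of these held a match (40%), against 20 of 42 (47.6%) among the other nuclear members.

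The windows of 3 members show the matches, in capitals. Uqcrc1 and Cox6a1 were low in female KO 1 and 3 and Sdhb was not. The window of Uqcrc1, chr9:108936398-108936697 on the plus strand, holds 2 NRF1 matches. That of Cox6a1, chr5:115348909-115349208 on the minus strand, holds 2 NRF1 matches and 1 ETS match. That of Sdhb, chr4:140961021-140961320 on the plus strand, holds 1 ETS match.
Uqcrc1: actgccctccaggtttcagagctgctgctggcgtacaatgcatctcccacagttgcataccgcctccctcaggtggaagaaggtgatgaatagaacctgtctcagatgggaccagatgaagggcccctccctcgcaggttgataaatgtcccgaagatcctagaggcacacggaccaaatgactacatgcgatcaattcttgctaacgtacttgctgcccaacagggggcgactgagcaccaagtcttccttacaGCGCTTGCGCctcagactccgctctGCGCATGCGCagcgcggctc
Cox6a1: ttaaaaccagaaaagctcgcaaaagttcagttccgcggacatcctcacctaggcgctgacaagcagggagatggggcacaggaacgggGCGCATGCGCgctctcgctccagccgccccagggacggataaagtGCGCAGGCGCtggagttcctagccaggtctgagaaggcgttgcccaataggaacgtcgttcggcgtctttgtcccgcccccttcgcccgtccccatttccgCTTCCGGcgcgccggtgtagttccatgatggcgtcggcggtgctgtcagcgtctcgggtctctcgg
Sdhb: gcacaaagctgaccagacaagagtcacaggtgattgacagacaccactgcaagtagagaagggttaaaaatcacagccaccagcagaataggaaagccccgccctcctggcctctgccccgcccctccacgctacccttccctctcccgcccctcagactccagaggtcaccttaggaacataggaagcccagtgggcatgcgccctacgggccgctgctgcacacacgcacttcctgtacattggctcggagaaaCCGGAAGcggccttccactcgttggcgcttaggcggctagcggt

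Of the regulators that bind such letters, Nrf1 had 165, 267 and 203 CPM in female KO 1 to 3 and 291, 319 and 328 CPM in female FL 1 to 3. In males Nrf1 had 271, 251 and 296 CPM in KO 1 to 3 and 320, 323 and 285 CPM in FL 1, 2 and 4. Female KO lay below female FL without overlap, with a log2 fold change of -0.37 over both sexes (SE 0.11, edgeR adjusted p = 0.101). Gabpa, the DNA-binding part of GABP, had 116, 184 and 121 CPM in female KO and 160, 232 and 229 CPM in female FL libraries, at a log2 fold change of -0.36 over both sexes (SE 0.14, edgeR adjusted p = 0.195). Without female KO 1 and 3 the values over both sexes were -0.21 for Nrf1 (edgeR adjusted p = 0.344) and -0.17 for Gabpa (edgeR adjusted p = 0.770). No gene among the 7 tested regulators of mitochondrial biogenesis or the 10 tested genes of mitochondrial DNA copying and transcription passed. The median log2 fold change over both sexes was -0.36 for the 7 and -0.24 for the 10. Tfam, which packs mitochondrial DNA, lies on the minus strand and had 0.422 to 1.79 CPM.

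Around the chain, 2 genes of these lists passed over both sexes, both higher in KO, where 3.31% of all tested genes passed. Idh3a, the catalytic subunit of the NAD-linked isocitrate dehydrogenase of the tricarboxylic acid cycle, had 263, 276 and 237 CPM in male KO 1 to 3 and 196, 198 and 226 CPM in male FL 1, 2 and 4. In females Idh3a had 329, 286 and 319 CPM in KO 1 to 3 and 208, 205 and 213 CPM in FL 1 to 3. The groups did not overlap in either sex. Idh3a rose by a log2 fold change of 0.45 over both sexes (SE 0.07, edgeR adjusted p = 0.0117), and it was called in 20 of 23 other settings, with adjusted p = 0.137 without female KO 1 and 3 and up to 0.0526 in the others that lost it. It was 1 of the 19 tested genes of the cycle, whose median was -0.03, and none of them was lower.

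Slc25a5, which exchanges ADP for ATP across the inner membrane, had 1024, 1015 and 936 CPM in male KO 1 to 3 and 758, 883 and 911 CPM in male FL 1, 2 and 4. In females Slc25a5 had 1420, 1051 and 1255 CPM in KO 1 to 3 and 882, 819 and 911 CPM in FL 1 to 3. Each KO library again lay above each FL library of its sex. Female KO 1 and 3 were the highest of all libraries for Slc25a5. Slc25a5 rose by a log2 fold change of 0.37 over both sexes (SE 0.09, edgeR adjusted p = 0.0456). The call was kept in only 6 of 23 other settings, and over all 23 the log2 fold change lay between 0.25 and 0.43. After the GC trend was removed it was 0.28 (edgeR adjusted p = 0.160). Slc25a5 was 1 of 14 tested carriers, uncouplers and electron entry genes, with a median of 0.01 and none lower.

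In the other lists no gene passed over both sexes. These were 22 assembly factors outside the name rule with a median log2 fold change of -0.15, 9 antioxidant genes at -0.05 and 12 mitophagy and dynamics genes at -0.07. Cyc1, the cytochrome c1 of complex III, whose symbol the name rule leaves out, had 11.0, 99.6 and 12 CPM in female KO 1 to 3 and 51.3, 119 and 132 CPM in female FL 1 to 3. It thus had the pattern of Cox5a and Atp5b, low in female KO 1 and 3 with female FL 1 next. Cs encodes citrate synthase, whose enzyme activity, not its RNA level, is often taken as a measure of mitochondrial content. The RNA of Cs had 521, 607 and 654 CPM in female KO and 543, 525 and 541 CPM in female FL libraries. In males it had 564 to 586 CPM in KO and 488 to 546 CPM in FL libraries.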

How the data were processed

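Libraries were made from TRIzol total RNA of sorted Treg cells with a SMARTer Stranded kit, per the labels' protocols. The authors deposited raw read counts per gene symbol; CASAVA, STAR 2.3.0e and 2.5.2b, HTSeq 0.6.1p1 and build mm9 are named in the submitters' processing notes. The strand setting, the annotation and the handling of multiply placed reads are not given in the sources used here. The 5 HTSeq summary entries were left out, and reads in genes made up 29.5 to 35.7% of each library.

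The counts were tested with edgeR 4.0.16 in R 4.3.3 (quasi-likelihood, robust, TMM, filterByExpr, 12 libraries, 12411 of 29806 genes with reads), KO against FL within each sex, over the mean of both and as the difference of the sexes, with Benjamini-Hochberg adjustment over all tested genes and a threshold of 0.05. CPM use TMM-scaled library sizes, but for the member rule, which uses unscaled totals. Named genes were all mitochondrial messages and rRNAs, the 2 most abundant nuclear members per complex, isoform pairs, the 6 smallest p per contrast, called genes of related pathways, and genes picked after their values were seen, such as Atp5d, Cox5b, Ndufab1, Sdhc, Nrf1, Gabpa and Cyc1. The members and lists were chosen with earlier results of these data known. Strand, exon length and GC content came from GENCODE M21 by symbol (78 of 79 members), which is not on mm9, so only RefSeq promoters carry coordinates. Copies were found with BLAST 2.17.0 at 99% identity over at least 100 bases.

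Alternatives were RLE scaling, DESeq2 1.42.0, limma-voom (limma 3.58.1), no filter or 5 CPM in 3 libraries, single-sex fits, a block for replicate numbers, a GC and length trend removed per library (mgcv 1.9.3), plus-strand genes only, mitochondrial genes left out of library sizes, libraries that stand apart left out, and each library left out in turn. The scripts were tested on simulated counts.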

Additional observations from a re-analysis of the deposited data

How the results depend on the processing

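No member was called over both sexes in 18 of 23 other settings. The exceptions were 3 members with DESeq2, 27 with limma-voom and quality weights (16 higher, 11 lower), 4 with the replicate number as a block and, leaving out each library in turn, 0 to 14, with 14 without female KO 2 and 7 without male KO 3. In females the number called was 1 with DESeq2 (where 6.76% of all genes were called), 33 with limma-voom (43.8%) and 0 to 17 leaving out each library, with 17 without female KO 2 (23.7%). For the difference of the sexes it was 13 with limma-voom (8.38%) and 0 to 11, with 11 without female KO 2 (8.5%). In males no member was called in any setting. Over both sexes 9.17% of all genes were called with DESeq2, 37.3% with limma-voom, 22.6% without female KO 2 and 6.11% without male KO 3. The 7 members called without male KO 3 (mt-Nd1, mt-Nd2, mt-Nd4, mt-Nd5, mt-Rnr2, Ndufc2 and Uqcrb) were all higher in KO. No called value turned its sign, and 18 of 34 named members changed sign without a call in at least 1 setting. The causes were not tested.

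The deviations of same-numbered KO and FL libraries correlated at 0.442 and -0.614 in males and at 0.189, 0.279 and -0.225 in females. These values, of mixed sign, do not decide whether libraries of the same number belong together. The replicate block called mt-Nd1, mt-Nd2, mt-Nd5 and mt-Rnr2 over both sexes, 4 in all, as higher, where 9.81% of all genes passed, and none within a sex.

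The log2 ratio of mitochondrial to nuclear counts was 0.44 higher in KO over both sexes and lay between 0.06, with the GC trend removed, and 0.61, without female KO 2. Low counts limit what can be compared for many minus-strand members and for mt-Co2, mt-Co3, mt-Atp6, mt-Atp8, mt-Nd4l and mt-Nd6.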
